A study of Mus musculus with 17 samples.

Results

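The 36 genes described here encode aminoacyl-tRNA synthetases, 20 of the cytosol and 16 of mitochondria. They were taken by symbol from the 18836 genes that were listed in at least 1 library, with the mitochondrial enzymes recognised by a gene name that ends in 2. All 36 were listed in each of the 17 libraries and passed the filter on low values. The cells were mouse neural retinal progenitor cells (mNRPCs), grown from the neural retina of adult C57BL/6 mice, and poly-A RNA was sequenced. Besides the day 0 library there was 1 library for each of 4 media on days 1, 3, 5 and 7: basic medium (BM), BM with basic fibroblast growth factor (B, here bFGF), BM with CHIR99021 (C, an inhibitor of glycogen synthase kinase 3) and BM with both (BC). The day 0 library is labelled as untreated, and the study describes it in one place as cells in BM and in another as cells before treatment, so what a difference against it holds is not certain. All cultured libraries share BM, an N2 and B27 medium without serum, and how many animals or cultures stand behind a library was not stated in the sources used here. The study isolated and expanded these cells in BM with both bFGF and CHIR99021. The effect of either factor therefore cannot be told apart from that of its withdrawal in the media without it. The study asked what bFGF, CHIR99021 and the combination do to the self-renewal of these cells, and for the synthetases this became a comparison of the 8 libraries with bFGF and the 8 without it on days 1 to 7.

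An aminoacyl-tRNA synthetase joins an amino acid to its transfer RNA, the step that ties the genetic code to protein synthesis. One set of enzymes serves translation in the cytosol and another, also encoded in the nucleus, serves the ribosomes inside mitochondria, which make a few subunits of the respiratory chain. Several cytosolic enzymes are held in a multisynthetase complex, and the genes of many cytosolic enzymes are known targets of ATF4, the transcription factor of the amino acid and integrated stress responses. Gars and Kars each encode both the cytosolic and the mitochondrial form and were counted with the cytosolic enzymes.

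Promoters are shown for the genes on which the description turns, 5 cytosolic genes that hold the core letters of the element bound by ATF4 (TGATGNAA, read on both strands) and 2 mitochondrial genes whose expression was lower with bFGF and that hold none. RefSeq (GRCm38.p6) gave a promoter of 300 bases, 250 before and 50 after the start, for 27 of the 36 genes, 13 cytosolic and 14 mitochondrial. Capitals mark the match, and the sequences run 5′ to 3′ on the strand of the gene.
Aars promoter, chr8:111033592-111033891, plus strand: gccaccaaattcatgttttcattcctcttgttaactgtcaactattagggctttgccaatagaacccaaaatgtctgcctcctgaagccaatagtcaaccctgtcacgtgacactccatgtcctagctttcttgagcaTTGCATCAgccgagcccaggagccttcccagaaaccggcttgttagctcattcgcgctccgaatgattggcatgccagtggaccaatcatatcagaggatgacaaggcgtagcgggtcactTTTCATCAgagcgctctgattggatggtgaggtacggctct
Gars promoter, chr6:55037751-55038050, plus strand: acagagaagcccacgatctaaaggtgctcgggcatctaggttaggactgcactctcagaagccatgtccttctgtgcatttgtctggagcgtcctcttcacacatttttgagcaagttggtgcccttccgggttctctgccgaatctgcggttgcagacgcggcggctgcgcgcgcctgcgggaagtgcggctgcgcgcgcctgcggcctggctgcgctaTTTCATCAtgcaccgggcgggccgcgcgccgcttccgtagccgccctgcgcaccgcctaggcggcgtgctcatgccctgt
Iars promoter, chr13:49681880-49682179, plus strand: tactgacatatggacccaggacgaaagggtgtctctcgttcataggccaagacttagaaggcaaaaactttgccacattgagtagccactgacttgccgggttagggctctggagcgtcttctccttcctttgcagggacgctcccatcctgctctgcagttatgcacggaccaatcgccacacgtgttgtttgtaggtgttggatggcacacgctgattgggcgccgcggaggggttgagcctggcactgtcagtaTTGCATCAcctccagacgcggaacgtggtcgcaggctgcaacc
Tars promoter, chr15:11399609-11399908, minus strand: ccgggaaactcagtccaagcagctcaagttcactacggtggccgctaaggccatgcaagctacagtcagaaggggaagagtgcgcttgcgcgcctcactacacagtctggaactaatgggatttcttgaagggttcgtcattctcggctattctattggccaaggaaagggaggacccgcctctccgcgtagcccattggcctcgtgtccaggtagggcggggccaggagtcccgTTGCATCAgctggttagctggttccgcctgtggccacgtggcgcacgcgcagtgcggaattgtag
Yars promoter, chr4:129189653-129189952, plus strand: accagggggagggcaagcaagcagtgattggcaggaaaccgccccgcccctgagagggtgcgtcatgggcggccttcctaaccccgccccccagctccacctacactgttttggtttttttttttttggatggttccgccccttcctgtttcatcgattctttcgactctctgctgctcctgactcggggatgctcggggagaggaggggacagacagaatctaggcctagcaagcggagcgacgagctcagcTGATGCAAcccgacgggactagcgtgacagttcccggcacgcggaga
Rars2 promoter, chr4:34614707-34615006, plus strand: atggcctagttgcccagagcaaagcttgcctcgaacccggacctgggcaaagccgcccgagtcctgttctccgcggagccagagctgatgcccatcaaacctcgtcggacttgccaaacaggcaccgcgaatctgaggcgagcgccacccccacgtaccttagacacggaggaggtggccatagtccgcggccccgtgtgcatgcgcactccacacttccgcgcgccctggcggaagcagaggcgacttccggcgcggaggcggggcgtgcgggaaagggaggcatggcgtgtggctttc
Cars2 promoter, chr8:11550722-11551021, minus strand: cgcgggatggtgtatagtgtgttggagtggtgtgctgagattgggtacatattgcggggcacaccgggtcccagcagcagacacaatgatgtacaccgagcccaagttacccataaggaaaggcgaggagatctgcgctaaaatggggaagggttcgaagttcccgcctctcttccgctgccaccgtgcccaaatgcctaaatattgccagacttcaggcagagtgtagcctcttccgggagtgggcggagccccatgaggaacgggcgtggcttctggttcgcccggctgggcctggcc
TGATGNAA occurred in the promoters of these 5 cytosolic genes and in no mitochondrial one, and in 4.51% of the promoters of 27025 genes. Aars, the alanyl-tRNA synthetase gene, held it at positions -112 and 9 from the start used in that table, which for Aars, Yars and Cars2 lies inside the full span of the gene given further on, and Gars (glycyl) at -30, Iars (isoleucyl) at 7, Tars (threonyl) at -15 and Yars (tyrosyl) at 3. Eprs, Mars and Sars, which are also known ATF4 targets, held no match in this window. The E-box letters CACGTG stood in the promoters of Aars, Farsb, Iars, Tars and Ears2 and in 8.09% of all promoters. The NRF1 motif, bound by a factor of many mitochondrial genes, stood in those of Farsb, Kars, Tars, Iars2 and Mars2 and in 5.19% of all. Matches to different letters did not overlap in any of these promoters. A match describes the letters of the window and does not show binding.

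By class median, transcripts of the cytosolic enzymes were far more abundant than those of the mitochondrial enzymes in every library. FPKM, a fragment count scaled to transcript length and to the library total, is a level that can be compared between genes. At day 0 the median FPKM of the cytosolic class was 81.4, from 39.3 for Wars (tryptophanyl) to 322 for Nars (asparaginyl). In the same library the median of the mitochondrial class was 10.6, from 2.83 for Pars2 (prolyl) to 37.3 for Iars2 (isoleucyl). Nars had the highest level of the cytosolic class in all 17 libraries, from 96.3 in BM on day 3 to 440 in BC on day 1. Together the cytosolic genes took 0.606% of all counts at day 0, 0.819% in BC on day 1 and 0.208% in BM on day 3.

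The libraries were even in depth, with 17571973 to 19428744 expected counts and 14820 to 15882 genes listed. No condition had a second library, so the spread in every test below is the departure of single libraries from the fitted terms and not the spread between cultures. For the effects over days 1 to 7 these terms were additive effects of day, bFGF and CHIR99021, with a biological coefficient of variation of 24.7%. For the effects on each day and the changes over time bFGF had a term for each day, and the coefficient was 10%. The composition moved with bFGF: the TMM scaling factors on day 7 were 0.793 and 0.755 for the B and BC libraries, and 1.13 and 1.12 for BM and C. With no such scaling the log2 fold change of the median gene with bFGF was -0.29 over days 1 to 7 and -0.54 on day 7, so fold changes are given after scaling, which brings that median to near 0. Of 9 markers of retinal progenitors, 6, among them Pax6, Six3 and Sox2, had a median FPKM of at least 1, and Rax was at or near 0. Progenitor markers differed with bFGF as well: on day 7 Pax6 was at 10.7 FPKM in B and 16.5 in BC, where BM and C had 165 and 152, and Six3 at 20.4 and 24.1, where they had 61.9 and 58.5. So did markers of other cells: 4 fibroblast genes summed to between 2.65 and 55.8 FPKM without bFGF and to between 1.59 and 6.85 with it, and 3 lens genes to between 1.25 and 393, nearly all Crygs, against 0.06 to 0.59, with Cryaa and Bfsp1 below 1 in every library. Their part in the results was not tested, and fewer cells of a type cannot be told apart from less RNA per cell.

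With bFGF most cytosolic synthetases were higher, while the mitochondrial ones were spread to both sides. Over days 1 to 7, 17 of the 20 cytosolic genes were higher and 0 lower at an adjusted p below 0.05 (edgeR quasi-likelihood test, Benjamini-Hochberg over 11272 genes), where 34.6% of all genes tested were higher and 33.9% lower. The median log2 fold change of the cytosolic class was 0.88, against a median near 0 for all genes. Of the 16 mitochondrial genes 3 were higher and 7 lower, with a median of -0.26, and the share that was lower is not far from that of all genes. The folds ran from 0.04 for Farsa to 1.23 for Cars in the cytosol and from -1.46 for Pars2 to 0.46 for Yars2 in mitochondria. In edgeR on the counts with no scaling for composition, 15 cytosolic genes passed as higher and 0 as lower. Of the mitochondrial genes 0 passed as higher and 11 as lower, where 19.9% of all genes were higher and 50.6% lower. After quantile normalization with limma the counts were 17 and 0, and 4 and 5, where 33.3% and 34.2% of all genes were. With a block for each of the 8 pairs (a library with bFGF and its partner of equal day and CHIR99021 state), a fit added after seeing the data, 17 cytosolic genes were higher and 0 lower, and 2 mitochondrial genes were higher and 5 lower, where 30.5% and 29.5% of all genes were. Iars2, Mars2 and Vars2 lost their call in it, with adjusted p from 0.0552 to 0.089 in edgeR. Fars2 stood at the threshold, with an adjusted p of 0.05 in edgeR after rounding.

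**Figure D1:**
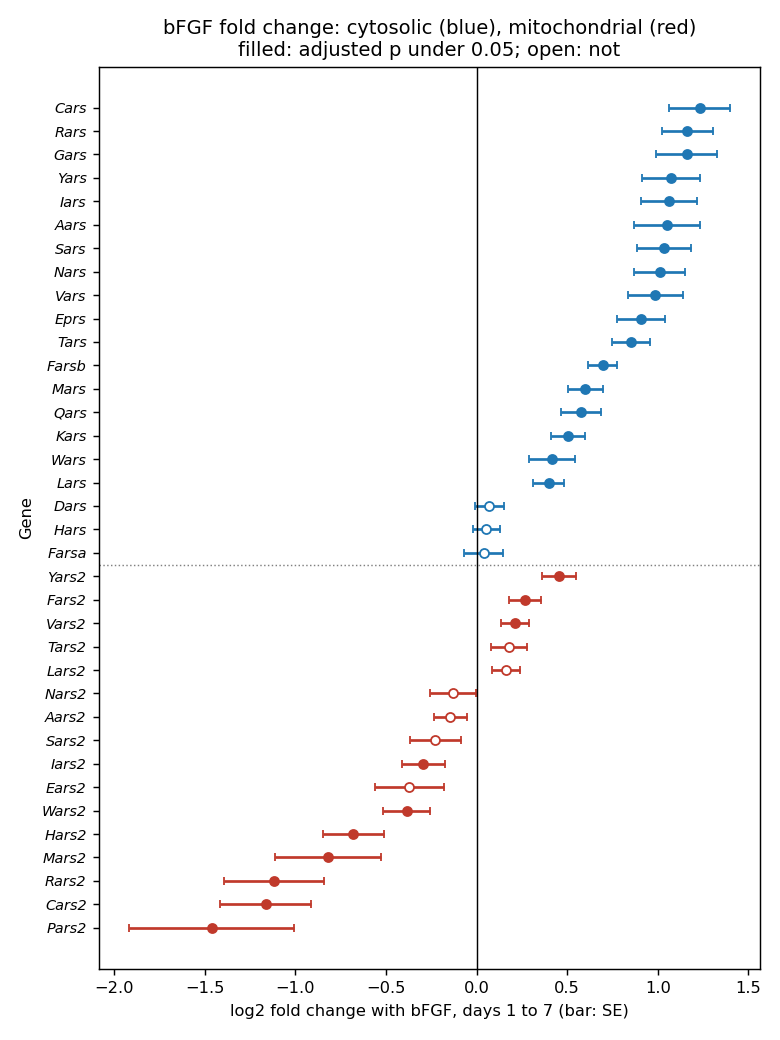
The log2 fold change with bFGF over days 1 to 7 (horizontal axis) of each of the 36 genes, with its SE as a bar, cytosolic in blue and mitochondrial in red; filled points passed an adjusted p of 0.05. The 17 filled cytosolic points lie to the right of 0, and the mitochondrial points run from -1.46 to 0.46.

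Cars, the cysteinyl-tRNA synthetase gene (chr7:143557230-143600090), showed the largest fold of the cytosolic class. Medium B gave 175 FPKM on day 1, 128 on day 3, 93.5 on day 5 and 87.8 on day 7, and BC gave 175, 92.2, 87.7 and 93.9. The BM series was 143, 40.8, 40.5 and 52.1, and the C series 152, 43.0, 38.3 and 46.5. From day 3 on every library with bFGF was above every library without it, while on day 1 all 4 were high. The log2 fold change was 1.23 (SE 0.167, adjusted p = 0.00014 in edgeR), with the higher level in the bFGF library in 8 of 8 pairs of the same day and CHIR99021 state. The pairs, here and below, compare FPKM without scaling for composition. How many of all genes share such a pattern was not counted.

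Rars, the arginyl-tRNA synthetase gene of the multisynthetase complex (chr11:35808381-35834528), had the largest fold of the class on day 1, at 0.67 (SE 0.172) on the log2 scale. On day 1 the B and BC libraries stood at 196 and 195 FPKM, above BM and C at 133 and 128, and on day 7 at 115 and 97.4, above 49.1 and 51.4. BC on day 3, at 52.5, was the lowest of its libraries with bFGF, below B on the same day at 86.5. The log2 fold change was 1.16 (SE 0.141, adjusted p = 8.12e-05 in edgeR).

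Gars, Yars, Iars and Aars followed with folds of about the same size, all in 8 of 8 pairs. Gars (chr6:55038001-55079504) ran from 84.1 to 266 FPKM with a median of 121 in the 8 libraries with bFGF, and from 47.4 to 213 with a median of 54.3 in the 8 without; its log2 fold change was 1.16 (SE 0.169, adjusted p = 0.000212 in edgeR). Yars (chr4:129189734-129219240) ran from 32.3 to 76.5 with a median of 51.4, against 18.5 to 63.9 with a median of 24.0, a log2 fold change of 1.08 (SE 0.16, adjusted p = 0.000238 in edgeR). Both ranges overlap only through day 1, when the libraries without bFGF had not yet reached their later level. Iars (chr13:49682130-49734267) ran from 27.5 to 101 with a median of 38.6, against 15.3 to 84.0 with a median of 19.6, a log2 fold change of 1.06 (SE 0.154, adjusted p = 0.000203 in edgeR). Aars (chr8:111027778-111055569) ran from 71.2 to 198 with a median of 129, against 43.6 to 185 with a median of 62.9, a log2 fold change of 1.05 (SE 0.182, adjusted p = 0.000528 in edgeR). Aars was higher in B than in BC on days 3, 5 and 7, at 95.4 against 71.2, 162 against 119 and 139 against 103.

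The other cytosolic genes that rose had log2 fold changes from 0.40 for Lars (leucyl) and 0.42 for Wars to 1.03 for Sars (seryl), with Nars at 1.01, Vars (valyl) at 0.99, Eprs, the fused glutamyl-prolyl enzyme, at 0.91 and Tars at 0.85. Farsb, the beta subunit of the phenylalanyl enzyme, rose by 0.70, Mars (methionyl) by 0.60, Qars (glutaminyl) by 0.58 and Kars (lysyl) by 0.50. Lars and Wars did not pass without the scaling for composition, at 0.11 (adjusted p = 0.456) and 0.13 (adjusted p = 0.475) in edgeR. Dars (aspartyl) at 0.07, Hars (histidyl) at 0.05 and Farsa, the alpha subunit of the phenylalanyl enzyme, at 0.04 did not pass, with SEs from 0.074 to 0.107, and their sign turned without the scaling. The subunits Farsa and Farsb, which work as one enzyme, thus had folds of 0.04 and 0.70. At day 0 they stood at 54.2 and 56.6 FPKM, in BM on day 7 at 19.2 and 20.5, and in B on day 7 at 14.1 and 28.7.

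By role within the cytosolic class, 7 of the 8 genes of the multisynthetase complex rose, with a median log2 fold change of 0.59, and 10 of the 12 others, with a median of 1.00. Of all genes tested 34.6% rose with bFGF over days 1 to 7. All 12 known targets of ATF4 rose, with a median of 1.02, and 5 of the 8 other cytosolic genes, with a median of 0.54. The 5 genes with TGATGNAA in the printed promoters had folds from 0.85 to 1.16. Cytosolic genes whose promoter held no match ranged from 0.04 for Farsa to 1.03 for Sars, with Eprs at 0.91 and Mars at 0.60. Whether the match bears on the fold was not tested.

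In the mitochondrial class the largest fold was that of Pars2, the prolyl-tRNA synthetase gene (chr4:106651069-106655282). Medium B gave 3.49 FPKM on day 1, 2.22 on day 3, 0.30 on day 5 and 0.32 on day 7, and BC gave 3.63, 3.00, 0.29 and 0.20. The BM series was 3.31, 3.31, 3.42 and 2.37, and the C series 4.07, 3.44, 3.81 and 3.48. Only on days 5 and 7 did the libraries with bFGF drop far below the others, to as few as 8 expected counts, so these low levels are imprecise. The log2 fold change over all days was -1.46 (SE 0.455, adjusted p = 0.0125 in edgeR).

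Cars2 and Rars2, the mitochondrial counterparts of the cytosolic genes with the largest rises, fell by nearly as much. Cars2 (chr8:11514017-11550781) went through 6.55, 1.90, 0.93 and 1.58 FPKM on days 1, 3, 5 and 7 of medium B and 8.40, 3.29, 1.20 and 1.13 for BC. The BM series was 9.20, 4.60, 6.10 and 6.07, and the C series 9.48, 4.06, 6.17 and 6.21. It was lower with bFGF in all pairs, and the log2 fold change was -1.16 (SE 0.252, adjusted p = 0.00169 in edgeR). Without scaling the median gene was lower with bFGF too, at -0.25 over days 1 to 7 in limma on log2(FPKM + 1). Rars2 (chr4:34614957-34660167) went through 10.5, 4.85, 1.73 and 1.81 for B and 12.9, 7.04, 1.85 and 1.69 for BC, beside 11.1, 7.55, 8.71 and 10.7 for BM and 13.8, 10.4, 9.92 and 11.6 for C, a log2 fold change of -1.12 (SE 0.276, adjusted p = 0.00356 in edgeR). On day 1 the log2 fold change was -0.24 for Cars2 and -0.02 for Rars2, and neither passed. Both passed as lower on day 3, and for both genes the gap was widest on days 5 and 7.

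Mars2, the mitochondrial methionyl gene (chr1:55237177-55240058), stood at 4.85 and 5.23 FPKM on day 1 with bFGF, above 3.48 and 4.21 without. On day 7 it was at 0.49 and 0.59 with bFGF and at 2.49 and 3.08 without. The log2 fold change over all days was -0.82 (SE 0.292, adjusted p = 0.0241 in edgeR) and no longer passed when B or BC of day 5 or day 7 was left out, with adjusted p from 0.0592 to 0.0611. Hars2 (histidyl) at -0.68, Wars2 (tryptophanyl) at -0.39 and Iars2 at -0.29 also fell, and Iars2 lost its call when any 1 library of day 5 or day 7 was left out. After quantile normalization Wars2 was at 0.014 (adjusted p = 0.879 in limma) and Mars2 at -0.21 (adjusted p = 0.109 in limma), and neither passed. Yars2 (tyrosyl) at 0.46, Fars2 (phenylalanyl) at 0.27 and Vars2 (valyl) at 0.21 were higher, and none of the 3 passed without the scaling for composition. Vars2 lost its call when any of 9 single libraries was left out and Fars2 for any of 4. Aars2, Ears2 (glutamyl), Lars2, Nars2, Sars2 and Tars2 did not pass, with log2 fold changes from -0.37 for Ears2 to 0.18 for Tars2. The transcript length that scaled the FPKM of Ears2 ranged between libraries from 2317 to 4072 bases, so its FPKM also carries a change of length.

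**Figure D2:**
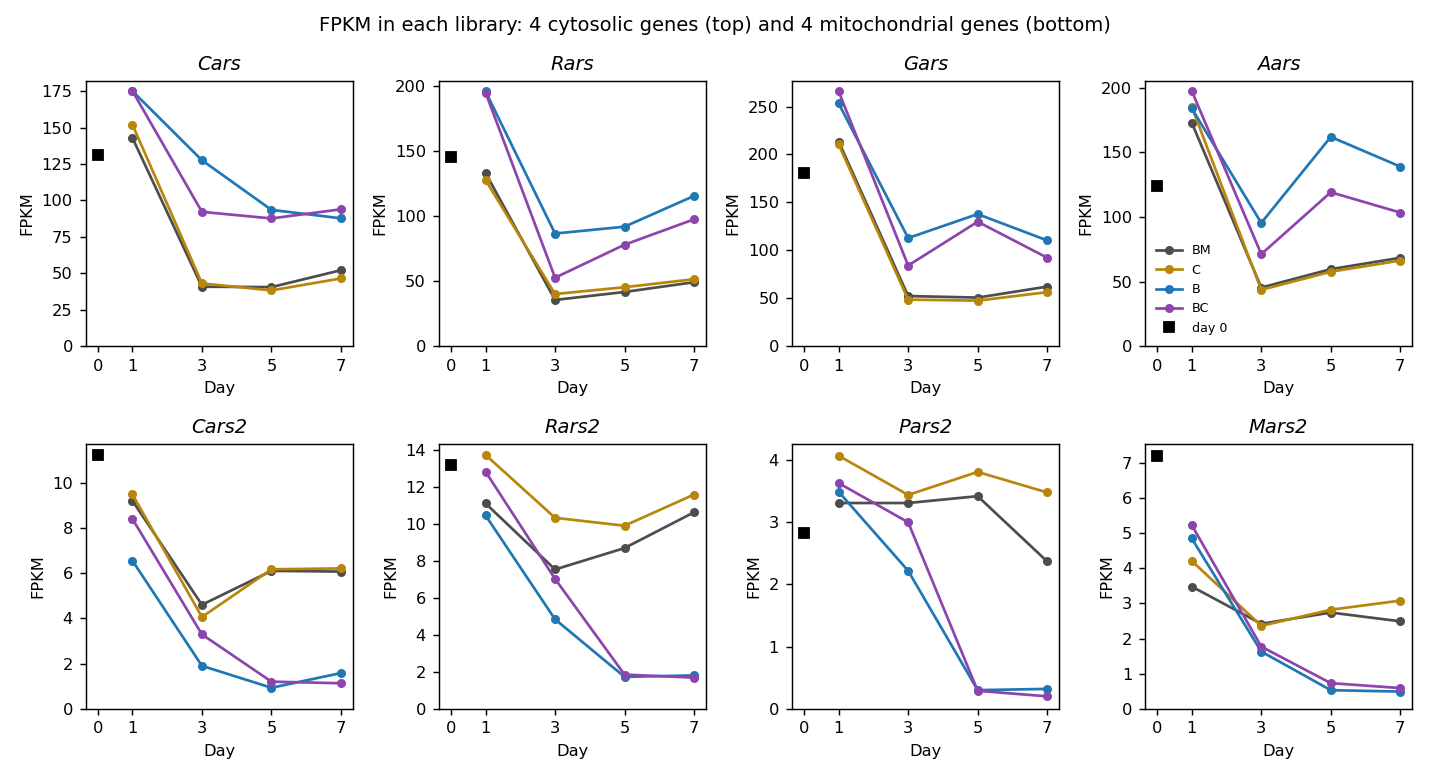
FPKM (vertical axis) by day (horizontal axis) of 4 cytosolic genes (top row) and 4 mitochondrial genes (bottom row) in BM, C, B and BC, with 1 point per library and the day 0 library as a square. From day 3 on both bFGF lines lie above the others for Cars, Rars, Gars and Aars, and on days 5 and 7 below them for Cars2, Rars2, Pars2 and Mars2.

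The bFGF difference was small on day 1 and larger on the later days, by class median largest on day 5 in both classes. On day 1, 7 cytosolic genes (Farsb, Gars, Hars, Lars, Nars, Rars and Tars) and 2 mitochondrial genes (Mars2 and Yars2) were higher and 0 members lower, where 6.21% of all genes were higher and 4.46% lower. That count was unstable: it was 0 when any 1 library of day 1 was left out and 2 without the scaling for composition. On day 3, 17 cytosolic genes were higher and 0 lower (25.4% and 25.0% of all genes), and 4 mitochondrial genes were higher (Fars2, Lars2, Vars2 and Yars2) and 4 lower (Cars2, Hars2, Mars2 and Rars2). On day 5, 16 cytosolic genes were higher and 2, Dars and Farsa, lower (37.2% and 38.6% of all genes), and 2 mitochondrial genes, Fars2 and Yars2, were higher and 10 lower. On day 7, 15 cytosolic genes were higher and 0 lower (38.8% and 39.6% of all genes), and 2 mitochondrial genes, Fars2 and Vars2, were higher and 9 lower.

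The class medians of the log2 fold change were 0.33, 0.85, 1.28 and 0.89 for the cytosolic genes on days 1, 3, 5 and 7 and 0.09, -0.07, -0.64 and -0.59 for the mitochondrial genes. Without the scaling for composition, 14 cytosolic genes were higher and 4 lower on day 7, the latter Dars, Farsa, Hars and Lars, and 13 mitochondrial genes were lower and 0 higher, where 21.9% of all genes were higher and 59.0% lower. After quantile normalization the mitochondrial median on day 7 was 0.03, with 4 genes higher and 6 lower, where 36.4% and 37.1% of all genes were.

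Individual folds on day 7 were wide at both ends. Rars stood at 1.62 (SE 0.177), Vars at 1.54 (SE 0.108) and Cars at 1.43 (SE 0.131) on the log2 scale. Pars2 stood at -3.12 (SE 0.271), Rars2 at -2.15 (SE 0.14), Cars2 at -1.87 (SE 0.237) and Mars2 at -1.81 (SE 0.18). The largest cytosolic fold of any day was that of Gars on day 5, at 1.89 (SE 0.109).

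The test of day 7 minus day 1 passed for 24 members and for 65.4% of all genes. The bFGF fold was larger on day 7 for 14 cytosolic genes and for Fars2, and smaller for 0 cytosolic and 9 mitochondrial genes, where 31.3% of all genes had a larger and 34.1% a smaller fold. Mars2 passed in both directions, at 0.48 on day 1 (SE 0.14, adjusted p = 0.0486) and -1.81 on day 7 (SE 0.18, adjusted p = 1.5e-06), both in edgeR, and the difference of -2.29 passed as well (adjusted p = 4.66e-06).

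**Figure D3:**
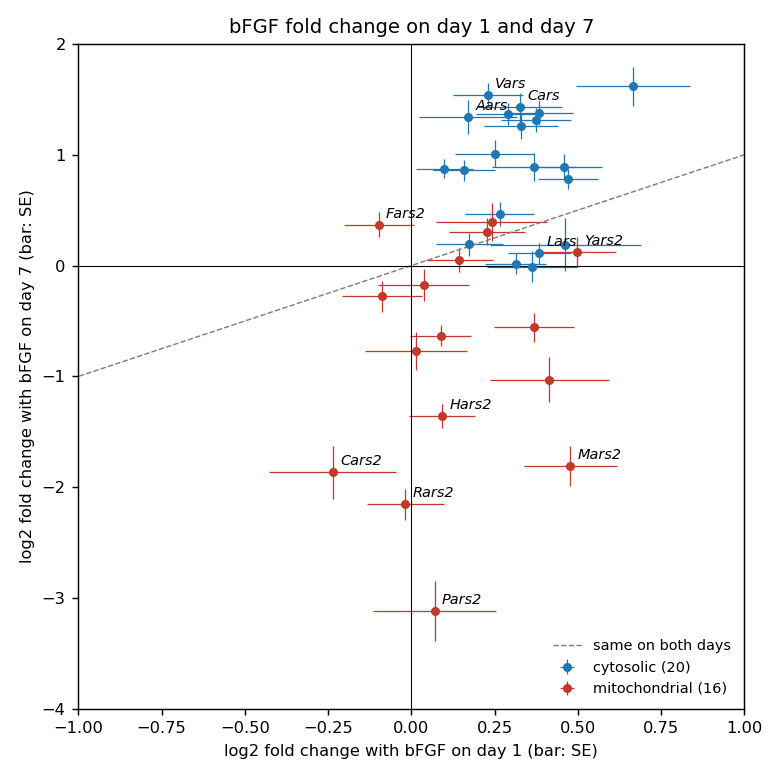
The log2 fold change with bFGF on day 1 (horizontal axis) and on day 7 (vertical axis) of each gene, with SE bars; the dashed line marks equal folds. Day 1 folds lie between -0.24 and 0.67, while day 7 folds run from -3.12 for Pars2 to 1.62 for Rars, and 14 cytosolic points passed as above the line.

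Read directly from the FPKM values of days 3 to 7, the 6 libraries with bFGF did not overlap the 6 without it for 16 members. They were all higher for 12 cytosolic genes (Aars, Cars, Eprs, Farsb, Gars, Iars, Nars, Rars, Sars, Tars, Vars and Yars), where 11.9% of all genes had this pattern. They were all lower for 4 mitochondrial genes (Cars2, Hars2, Mars2 and Rars2), where 29.7% had it. When day 1 was included, 0 members were without overlap in either direction, where 1.39% of all genes were higher and 4.44% lower. On day 7 alone all 16 mitochondrial genes were lower in B and BC than in BM and C. So were 4 cytosolic genes, Dars, Farsa, Hars and Lars, and 62.2% of all genes. In the other direction, 14 cytosolic genes were higher (24.8% of all).

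Levels also changed with time. Without bFGF, in BM and C, all 20 cytosolic genes were lower on day 7 than on day 1 and 0 higher (31.5% and 32.3% of all genes), with a median log2 change of -1.32. The change from day 1 was larger still on day 3, when the median was -1.76 and 19 genes had fallen (32.0% of all genes), Qars being the one that did not pass. From day 1 to day 7 the largest changes were -1.91 for Iars (SE 0.13, adjusted p = 1.79e-07), -1.87 for Gars (SE 0.109, adjusted p = 7.15e-08) and -1.84 for Vars (SE 0.108, adjusted p = 7.6e-08), all in edgeR. In FPKM, Vars went from 138 in BM and 146 in C on day 1 to 41.4 and 35.3 on day 3 and 42.4 and 38.7 on day 7. The day 1 and day 7 levels of Vars thus do not overlap.

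In the same libraries 13 mitochondrial genes were lower and 1 higher on day 7, with a median of -0.62. Sars2 (chr7:28741957-28753879) went from 15.7 FPKM in both BM and C on day 1 to 6.96 and 6.91 on day 7, a log2 change of -1.21 (SE 0.126, adjusted p = 4.88e-06 in edgeR). Yars2 (chr16:16302965-16309640) went from 15.6 and 16.4 to 7.91 and 7.99, a log2 change of -1.03 (SE 0.125, adjusted p = 1.77e-05 in edgeR). Fars2 (chr13:36117428-36537595) went from 17.4 and 16.95 to 8.96 and 9.25, a log2 change of -0.96 (SE 0.109, adjusted p = 1.06e-05 in edgeR). Hars2 was the one that rose, by 0.32 (SE 0.098, adjusted p = 0.013 in edgeR), from 12.5 and 12.3 to 16.98 and 16.7 FPKM. Ears2 at -0.40 and Pars2 at -0.28 did not pass.

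With bFGF, in B and BC, the log2 change from day 1 to day 7 differed from that without it. It was higher for the 14 cytosolic genes, and lower for the 9 mitochondrial genes, that passed the test of day 7 minus day 1. From day 1 to day 7, 17 cytosolic genes fell and 1 rose (39.5% and 35.8% of all genes), with a median log2 change of -0.59, and all 16 mitochondrial genes fell, with a median of -1.41. Qars rose by 0.23 (SE 0.085, adjusted p = 0.0263 in edgeR), and Aars at -0.26 and Sars at -0.23 did not pass. Wars (chr12:108860030-108894175) went from 75.4 FPKM in B and 85.2 in BC to 20.04 and 12.5, a log2 change of -1.91 (SE 0.24, adjusted p = 1.36e-05 in edgeR). Lars went from 114 in both to 27.4 and 21.7, a log2 change of -1.78 (SE 0.099, adjusted p = 2.17e-08 in edgeR). Iars went from 99.9 and 101 to 29.2 and 27.5, a log2 change of -1.39 (SE 0.128, adjusted p = 9.59e-07 in edgeR). On day 7 both Lars levels lay below those without bFGF, 34.2 and 31.9, and the BC level of Wars lay below 21.4 and 19.2, with the B level between them. The largest mitochondrial changes were -3.47 for Pars2 (SE 0.267), -2.77 for Mars2 (SE 0.174) and -2.45 for Rars2 (SE 0.14), with adjusted p between 2.37e-08 and 2.21e-07 in edgeR.

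**Figure D4:**
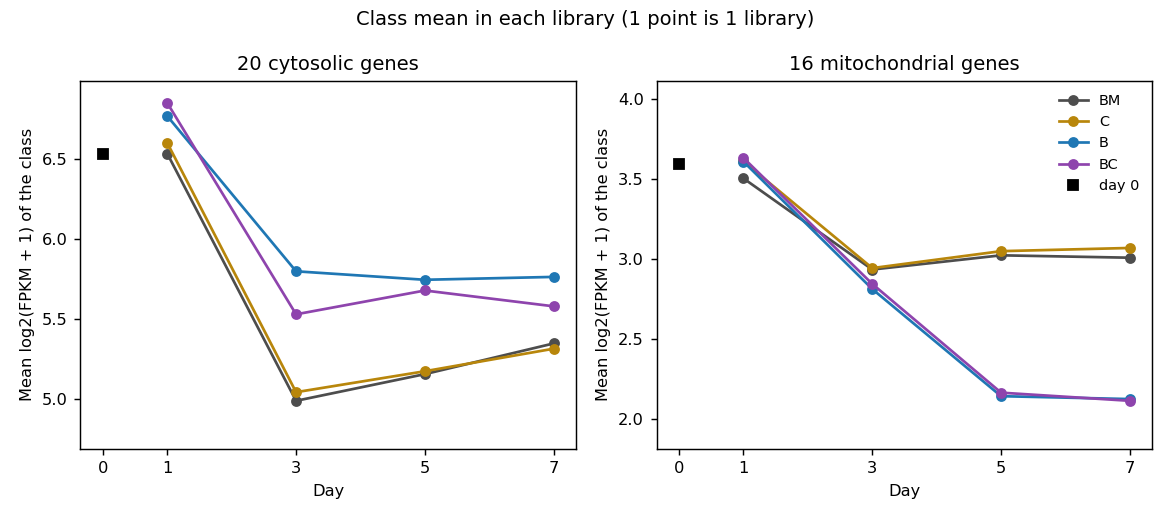
Mean log2(FPKM + 1) of the 20 cytosolic genes (left) and the 16 mitochondrial genes (right) by day in BM, C, B and BC, with the day 0 library as a square; 1 point is 1 library, both vertical axes span the same width and neither starts at 0. From day 3 on the bFGF libraries lie above the others in the left panel, and on days 5 and 7 below them in the right panel. The FPKM values carry no scaling for composition.

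The mean log2(FPKM + 1) of each class shows the divergence library by library, as a description with no test. The cytosolic mean was 6.53 at day 0 and between 6.53 and 6.85 on day 1. By day 7 the BM and C libraries stood at 5.35 and 5.31, the B and BC libraries at 5.76 and 5.58. The mitochondrial mean was 3.59 at day 0 and between 3.502 and 3.63 on day 1, and by day 7 BM and C stood at 3.01 and 3.07, B and BC at 2.12 and 2.11. These means carry no scaling for composition. On the same scale the median gene on day 7 differed from day 0 by 0.189 in BM and 0.176 in C. In B it differed by -0.271 and in BC by -0.328, so part of each gap between media was shared by the median gene. The difference between the classes was 2.94 at day 0. By day 7 it was 2.34 and 2.25 for BM and C, and 3.64 and 3.47 for B and BC. On day 7 it was thus narrower than at day 0 without bFGF and wider with it. Over days 3 to 7 the difference was larger with bFGF than without by 1.15 ± 0.333 (SD over 6 pairs of libraries).

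The 17 pairs of a cytosolic and a mitochondrial enzyme for the same amino acid show this gene by gene. The bFGF fold over days 1 to 7 was larger for the cytosolic partner in 16 pairs, with a median difference of 1.14 on the log2 scale, and the exception was Farsa with Fars2. On day 7 the median difference was 1.52. Cars exceeded Cars2 in level by 11.7 times at day 0, 8.58 times in BM on day 7 and 55.5 times in B on day 7. For Rars and Rars2 the ratio of FPKM was 4.61 in BM and 63.7 in B on day 7. For Eprs and Pars2 the 3 ratios were 30.2, 18.4 and 227, the last resting on very few Pars2 counts. Iars and Iars2 stayed close, at 2.10, 1.23 and 2.95, and Tars and Tars2 at 2.43, 1.80 and 2.13. Hars and Hars2 lie head to head on chromosome 18 with overlapping starts, so reads at the start could belong to either where strand was not used, and their bFGF folds were 0.05 and -0.68.

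Against the single day 0 library, differences of log2(FPKM + 1) have no test. In BM on day 7, 14 cytosolic genes were lower than at day 0 by at least 1 on this scale, as were 13.0% of all genes, and 4 mitochondrial genes. In C on day 7 it was 15 cytosolic and 4 mitochondrial genes (13.9% of all genes). In B on day 7 it was 7 cytosolic and 11 mitochondrial genes (23.2% of all genes), and in BC 10 and 11 (25.6% of all genes). No member was higher by at least 1 in these 4 libraries. On day 1, 0 members were lower by at least 1 in any medium, where between 0.622% and 2.39% of all genes were, and 1, Wars in BC at 1.10, was higher (3.49% of all genes).

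**Figure D5:**
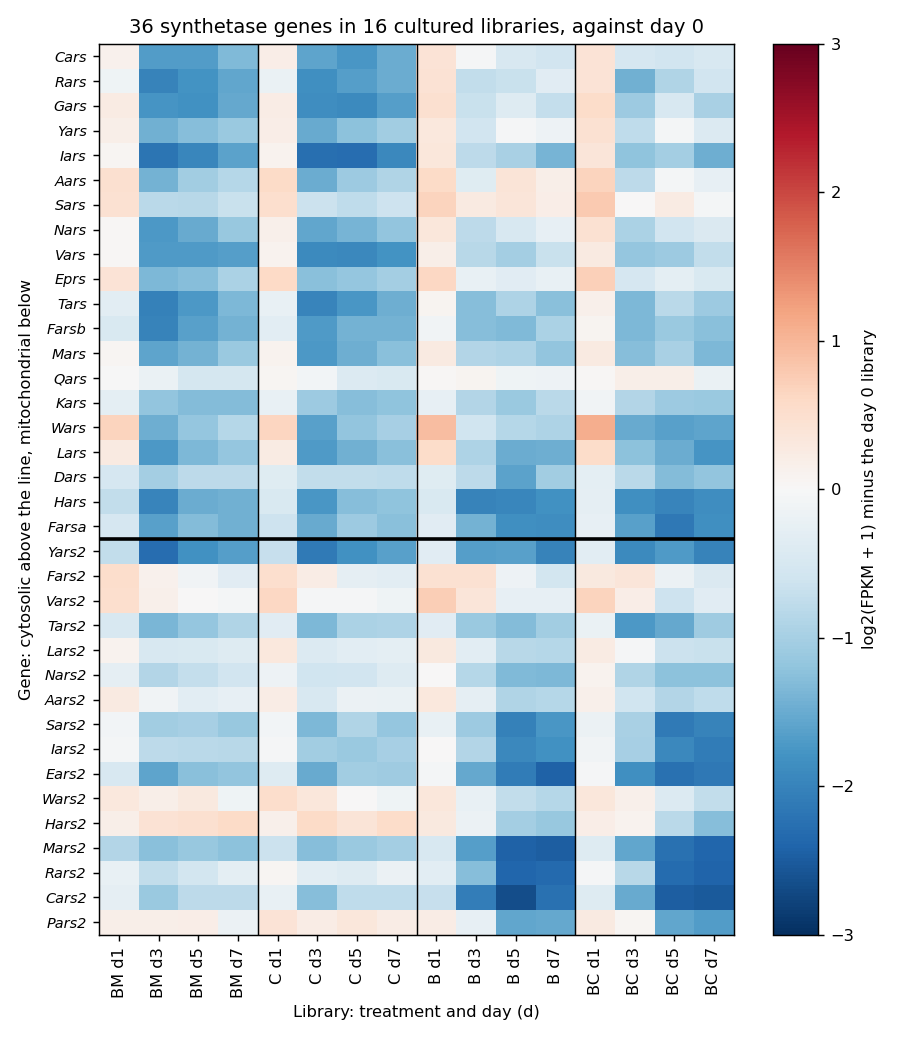
Each cell is the log2(FPKM + 1) of 1 gene (rows) in 1 library (columns, by medium and day) minus that of the day 0 library, red higher and blue lower; cytosolic genes are above the line and mitochondrial genes below, in the order of the bFGF fold. Most cytosolic rows are darkest blue in BM or C from day 3 on, but those of Dars, Farsa, Hars, Lars and Wars in B or BC. Most mitochondrial rows are darkest in B or BC on days 5 and 7, but Tars2 in BC and Yars2 in BM on day 3.

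Differences with CHIR99021 were small, and whether any passed depended on the fit. In the edgeR fit over days 1 to 7, 0 of 36 members passed and 3 had an unadjusted p below 0.05, where 0.337% of all genes passed. Those 3 were Wars at -0.32 (SE 0.128, adjusted p = 0.413), Lars2 at 0.18 (SE 0.076, adjusted p = 0.444) and Hars at 0.17 (SE 0.074, adjusted p = 0.464). Log2 fold changes of the members lay between -0.32 and 0.28. On days 3, 5 and 7 Wars was at 13.1, 11.99 and 12.5 FPKM in BC and at 25.7, 21.1 and 20.04 in B. Without bFGF it was at 12.1, 16.7 and 19.2 (C) and 13.5, 16.9 and 21.4 (BM). Where the spread was taken around a bFGF term for each day, 4 members passed, Hars at 0.17, Lars2 at 0.18, Rars2 at 0.29 and Iars2 at -0.15, with adjusted p from 0.00914 to 0.04 in edgeR, where 19.5% of all genes passed.

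For the interaction of bFGF and CHIR99021, 0 members passed in edgeR and 0 had an unadjusted p below 0.05, where 0.00887% of all genes passed. The 3 with the smallest adjusted p were Wars at -0.47 (SE 0.229), Rars at -0.37 (SE 0.268) and Tars2 at -0.27 (SE 0.193), each with an adjusted p of 1.0. Around a bFGF term for each day 0 members passed as well, and 4, Aars, Rars, Sars and Wars, had an unadjusted p below 0.05, where 0.692% of all genes passed. Of these Rars had the smallest p, at -0.37 (SE 0.138, adjusted p = 0.257 in edgeR).

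Other genes of the charging pathway followed the compartment in part. Over days 1 to 7, 34.6% of all genes tested rose with bFGF and 33.9% fell. The 3 scaffold genes of the multisynthetase complex all rose with bFGF over days 1 to 7, Eef1e1 by 0.97 (SE 0.118), Aimp1 by 0.82 (SE 0.166) and Aimp2 by 0.27 (SE 0.082). Aimp1 on day 7 was at 74.3 and 68.8 FPKM with bFGF and at 37.4 and 43.1 without, while Aimp2 was at 14.0 and 14.3 against 18.1 and 18.6, lower as deposited. Of 6 other genes for charging in mitochondria, 0 rose and 2 fell, among them Gatb, a subunit of the glutaminyl-tRNA amidotransferase, at -0.80 (SE 0.189). Of 5 genes for selenocysteine charging or for editing, Pstk rose by 0.49 and Aarsd1 by 0.26, while Sepsecs at -0.79, Prorsd1 at -0.48 and Dtd1 at -0.28 fell. Aarsd1, Prorsd1 and Dtd1 lost their call with the pairs as a block.

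Amino acid response genes, with Atf4 itself and known targets outside the synthetases, were examined beside these results. Of 30 amino acid response genes 24 rose with bFGF over days 1 to 7 and 0 fell, with a median log2 fold change of 0.85. Of all genes tested 34.6% rose and 33.9% fell. Atf4 itself was at 332, 85.4, 87.9 and 107 FPKM in BM on days 1, 3, 5 and 7, and at 405, 190, 337 and 275 in B. It was thus lower from day 3 on without bFGF and less so with it, and its log2 fold change was 1.45 (SE 0.227, adjusted p = 0.000312 in edgeR). Asns, asparagine synthetase, rose by 1.75 (SE 0.251) and Psat1, of serine synthesis, by 1.08 (SE 0.18). Slc7a11, the cystine transporter, did not pass at -0.55 (SE 0.428). On day 7, 23 of the 30 were higher and 5 lower, where 38.8% of all genes were higher and 39.6% lower. Whether Atf4 bears on the synthetases was not tested.

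Beside the ribosome the synthetases took another course. All 77 cytosolic ribosomal protein genes that were tested, of 81 listed, rose with bFGF over days 1 to 7, with a median of 1.40. They rose from day 1 to day 7 with bFGF as well (35.8% of all genes), with a median of 1.08. The median of the cytosolic synthetases over the same days was -0.59. Of 77 mitochondrial ribosomal protein genes 45 rose with bFGF and 6 fell, with a median of 0.29, where the mitochondrial synthetases had 3 and 7 and a median of -0.26. Of all genes tested 34.6% rose and 33.9% fell with bFGF over days 1 to 7.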

How the data were processed

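Poly-A RNA of 17 mNRPC libraries was sequenced on the BGISEQ platform. The submitters' processing notes name mm10, Bowtie2 and RSEM, while the study's methods name Bowtie 2 and eXpress, so the program behind the counts is not certain. The authors deposited, per library, an expected count per gene, which splits reads shared between genes and so may be fractional, and an FPKM value, scaled to transcript length and library total; genes from an FPKM of 0.01 were listed, and a gene not listed was read as 0. Library totals were 17571973 to 19428744. After rounding, counts of genes whose FPKM averaged 1 or more over the 16 cultured libraries were fitted by the quasi-likelihood method of edgeR 4.0.16 (R 4.3.3) with TMM scaling, and p-values were adjusted by Benjamini-Hochberg with a threshold of 0.05. The terms were day, bFGF and CHIR99021; another fit added the interaction of bFGF and CHIR99021 and another a bFGF term for each day, from which the changes over time were also taken. The biological coefficient of variation was 24.7% in the first fit. The SE is the log2 fold change divided by the square root of F. Library groups came from the labels. Alternatives were DESeq2 1.42.0, no TMM, other filters, limma 3.58.1 on log2(FPKM + 1) and log2(FPKM + 0.1), quantile normalization, other terms, fits lacking day 1 or any single library and, added after seeing the data, a block for each pair of libraries that differ only in bFGF. The fits were tested on simulated data. Members described in full were, with bFGF, the 6 cytosolic and 4 mitochondrial genes of largest fold past the threshold, and for the change over time the 3 largest of each class; where none passed, the 3 of smallest adjusted p. The members and lists were chosen with earlier results of these data known, and no list was tested as a set. Some genes of the lists are not reported here by name. Promoters and positions are those of RefSeq on GRCm38.p6. Plots were made with matplotlib 3.10.9 and tables read with pandas 2.3.3 (Python 3.11.15).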

Additional observations from a re-analysis of the deposited data

Results flagged for a closer look

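The fold change with bFGF differed between day 7 and day 1, by a test of the difference itself in the edgeR fit with a bFGF term for each day, for 24 of the 36 genes. The differences below are day 7 minus day 1 on the log2 scale, each past an adjusted p of 0.05. Among cytosolic genes they were 1.31 for Vars, 1.17 for Aars, 1.10 for Cars, 1.08 for Yars, 0.99 for Nars, 0.95 for Rars, 0.94 for Gars, 0.93 for Sars, 0.77 for Qars, 0.76 for Eprs, 0.70 for Kars, 0.52 for Iars, 0.43 for Farsb and 0.31 for Tars. Among mitochondrial genes the difference was 0.47 for Fars2, and it was negative for the other 9. It was -3.19 for Pars2, -2.29 for Mars2, -2.13 for Rars2, -1.63 for Cars2, -1.45 for Hars2, -1.45 for Ears2, -0.93 for Nars2, -0.79 for Wars2 and -0.72 for Iars2. Across all genes tested 65.4% passed this test. No condition had replicates, so single libraries were not tested as outliers.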

How the results depend on the processing

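The count of cytosolic genes higher with bFGF over days 1 to 7 was 17 without any single library, and the count of mitochondrial genes lower was 5 to 8. On day 7 these were 15 to 16 and 9. On day 1 the cytosolic count was 0 to 12 without single libraries, 2 without TMM, 3 without a filter and 1 in limma with either pseudocount or after quantile normalization. Mitochondrial genes lower over days 1 to 7 numbered 11 without TMM and in limma with either pseudocount, and 4 at a minimum mean FPKM of 5 (5 on day 7), where only 11 of the 16 were tested. Falls from day 1 to day 7 numbered 20 cytosolic and 9 to 14 mitochondrial genes without bFGF, and 12 to 18 and 15 to 16 with it. CHIR99021 had 4 members past the threshold around a bFGF term for each day and 0 without any single library; the interaction had 0 in both. The gap between the classes with bFGF, 1.15, was 0.764 after quantile normalization. Against day 0 the cytosolic mean without bFGF was -1.36, and -1.16 as a median; with bFGF it was -0.852, and -0.658 after quantile normalization and -0.740 as a median. The mitochondrial mean without bFGF was -0.590, and -0.650 with a pseudocount of 0.1 and -0.846 after quantile normalization.

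Of 54 results for single genes, 35 kept their direction and side of the threshold under every alternative run. The bFGF fold changed sign without TMM for Dars (-0.22), Farsa (-0.25), Hars (-0.23), Fars2 (-0.021), Lars2 (-0.13), Tars2 (-0.11) and Vars2 (-0.077). It did so in limma on log2(FPKM + 1) for Dars (-0.22), Farsa (-0.24), Hars (-0.23), Fars2 (-0.017), Lars2 (-0.11), Tars2 (-0.10) and Vars2 (-0.069), and on log2(FPKM + 0.1) for the same genes (-0.22, -0.26, -0.24, -0.019, -0.13, -0.11 and -0.081). At a minimum FPKM of 5 it did for Dars (-0.004), Farsa (-0.036) and Hars (-0.021), and without day 1 for Farsa (-0.078) and Hars (-0.041). After quantile normalization it did for Dars (-0.10), Farsa (-0.020), Hars (-0.047), Aars2 (0.054), Nars2 (0.11) and Wars2 (0.014). Farsa ranged from -0.018 to 0.116 without single libraries. The cause was not tested. The labels give no replicate numbers, and the paired fit, with each pair of libraries of the same day and CHIR99021 state as a block, left 17 cytosolic genes higher and 5 mitochondrial genes lower with bFGF. Genes of few counts, Pars2 from 8, Mars2 from 26 and Cars2 from 30, are the least precise.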
